A study of Homo sapiens with 6 samples.

Results

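The genes of the IKZF (Ikaros) family, IKZF1 to IKZF5, were examined for H3K27ac, the acetylated histone H3 found at promoters and enhancers in use, in Jurkat and 6T-CEM. Both are established human cell lines of T-cell acute lymphoblastic leukaemia. The members were taken by name: 5 genes of 19974 protein-coding genes on chromosomes 1 to 22 and X. Each was read through the H3K27ac peaks over its body and within 50 kb of it (hg38), which numbered 42 of 16159 in the first Jurkat library, 47 of 32097 in the second and 66 of 35154 in 6T-CEM. Values given as 3 numbers follow that order throughout, with the Jurkat libraries called replicate 1 and replicate 2. The groups used were Jurkat H3K27ac (2 libraries) and 6T-CEM H3K27ac (1 library). The 3 IgG controls were not analysed here. The assay is CUT&Tag per the series description, a method that cuts and tags DNA beside an antibody bound to chromatin, while the labelled extraction protocol speaks of sonicated nuclei. The description also names a treatment of 10 nM for 24 h and the title the BET inhibitor GNE-987, but the samples' own labels name none, and whether a library came from treated cells is unknown. Nothing in the labels tells if the Jurkat replicates came from separate cultures, so their difference may be technical. The peak names begin with Jur in replicate 1 and with Jur-NE in replicate 2, a difference the labels do not explain, so whether both had the same conditions is unknown and every difference between these replicates is read with that limit.

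Ikaros proteins are zinc finger transcription factors. One block of fingers binds DNA, a second block at the other end of the protein joins family members into dimers, and the proteins recruit chromatin remodelling and deacetylase complexes such as NuRD. IKZF1 encodes Ikaros, a regulator of lymphoid development that is lost or mutated in lymphoid leukaemias. IKZF3 (Aiolos) is best known from B cells, IKZF2 (Helios) and IKZF4 (Eos) from T-cell subsets including regulatory T cells, and IKZF5 (Pegasus) is the most distant relative and is expressed widely.

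The members differed widely in acetylation. IKZF1 carried long runs of peaks in every library, IKZF2 had peaks over both annotated starts in every library and a varying number elsewhere, IKZF4 was marked at an inner start in 2 libraries, IKZF5 weakly or not at all, and IKZF3 had no peak within its body in any library. RefSeq (GRCh38.p14, the build of hg38) gave annotated starts for 4 of the 5 genes, all but IKZF3. The 250 bases before 7 of these starts are printed to show the sequence at starts with and without a peak, which ranged from CG-poor to CG-rich. They run 5′ to 3′ on the strand of the gene, and capitals mark CG dinucleotides, which are dense in CpG island promoters.
IKZF1 first start, chr7:50304466-50304715, plus strand: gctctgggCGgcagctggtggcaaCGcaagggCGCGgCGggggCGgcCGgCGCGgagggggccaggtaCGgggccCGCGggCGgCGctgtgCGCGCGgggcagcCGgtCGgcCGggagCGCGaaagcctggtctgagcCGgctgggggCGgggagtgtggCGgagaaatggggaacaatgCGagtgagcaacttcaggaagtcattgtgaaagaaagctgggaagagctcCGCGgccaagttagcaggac
IKZF1 second start, chr7:50308450-50308699, plus strand: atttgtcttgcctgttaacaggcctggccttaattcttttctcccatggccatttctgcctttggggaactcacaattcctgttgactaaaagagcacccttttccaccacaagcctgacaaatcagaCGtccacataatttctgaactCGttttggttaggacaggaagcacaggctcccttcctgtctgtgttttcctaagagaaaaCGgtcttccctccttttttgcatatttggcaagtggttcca
IKZF2 outermost start, chr2:213152457-213152706, minus strand: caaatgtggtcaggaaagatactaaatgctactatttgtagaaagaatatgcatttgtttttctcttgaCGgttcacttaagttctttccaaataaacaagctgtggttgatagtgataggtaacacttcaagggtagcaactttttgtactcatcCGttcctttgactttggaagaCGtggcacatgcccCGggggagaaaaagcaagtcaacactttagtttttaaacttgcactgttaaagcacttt
IKZF2 inner start, chr2:213150438-213150687, minus strand: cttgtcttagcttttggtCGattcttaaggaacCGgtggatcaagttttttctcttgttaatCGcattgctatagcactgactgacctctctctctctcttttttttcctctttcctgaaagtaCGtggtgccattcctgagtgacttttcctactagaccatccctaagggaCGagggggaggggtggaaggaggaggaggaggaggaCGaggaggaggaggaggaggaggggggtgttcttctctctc
IKZF4 outermost start, chr12:56007254-56007503, plus strand: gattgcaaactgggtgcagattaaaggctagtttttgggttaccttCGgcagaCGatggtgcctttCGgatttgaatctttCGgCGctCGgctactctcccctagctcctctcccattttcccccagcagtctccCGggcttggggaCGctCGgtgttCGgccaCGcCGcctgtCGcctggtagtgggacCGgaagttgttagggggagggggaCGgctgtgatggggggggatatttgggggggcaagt
IKZF4 inner start, chr12:56020655-56020904, plus strand: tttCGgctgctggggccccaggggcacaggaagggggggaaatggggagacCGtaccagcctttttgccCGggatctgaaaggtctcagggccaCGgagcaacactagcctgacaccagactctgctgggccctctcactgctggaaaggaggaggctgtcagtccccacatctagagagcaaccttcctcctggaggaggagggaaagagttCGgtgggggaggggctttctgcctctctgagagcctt
IKZF5 outermost start, chr10:123008796-123009045, minus strand: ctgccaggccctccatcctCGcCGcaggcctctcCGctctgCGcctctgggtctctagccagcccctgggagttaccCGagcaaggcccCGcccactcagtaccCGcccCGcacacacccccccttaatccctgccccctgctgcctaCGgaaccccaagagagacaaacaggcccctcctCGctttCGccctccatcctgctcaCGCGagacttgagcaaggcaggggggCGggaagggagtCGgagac

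These stretches hold 28 CG dinucleotides at the first IKZF1 start and 3 at the second, 4 and 6 at the outermost and inner IKZF2 starts, 15 and 5 at the outermost and inner IKZF4 starts, and 15 at the outermost IKZF5 start. The median over 22132 annotated starts of protein-coding genes was 16. The first IKZF1 start had more CG than 79.9% of all starts, whereas the second had more than 13.8%. A peak lay over the first and the second IKZF1 start and over both IKZF2 starts in every library. The CG-poor inner IKZF4 start was under a peak in Jurkat replicate 2 and 6T-CEM, while the outermost IKZF4 start, richer in CG, had none in any library, the nearest peak being 7403 bp away in 6T-CEM, 13176 bp in Jurkat replicate 2 and 33027 bp in replicate 1.

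Among all starts with fewer than 10 CG, a peak covered 7.19%, 8.12% and 11.0%. Among those with 10 to 19 CG, it covered 36.6%, 22.3% and 32.0%, and among those with 20 or more 42.8%, 25.6% and 37.7%. Of the 6 IKZF starts with fewer than 10 CG, which belong to 3 genes, 3, 5 and 5 were under a peak. Of the 4 with 10 or more, again of 3 genes, 3, 1 and 2 were. Starts of the same gene can share a peak, so these counts are a description.

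**Figure D1:**
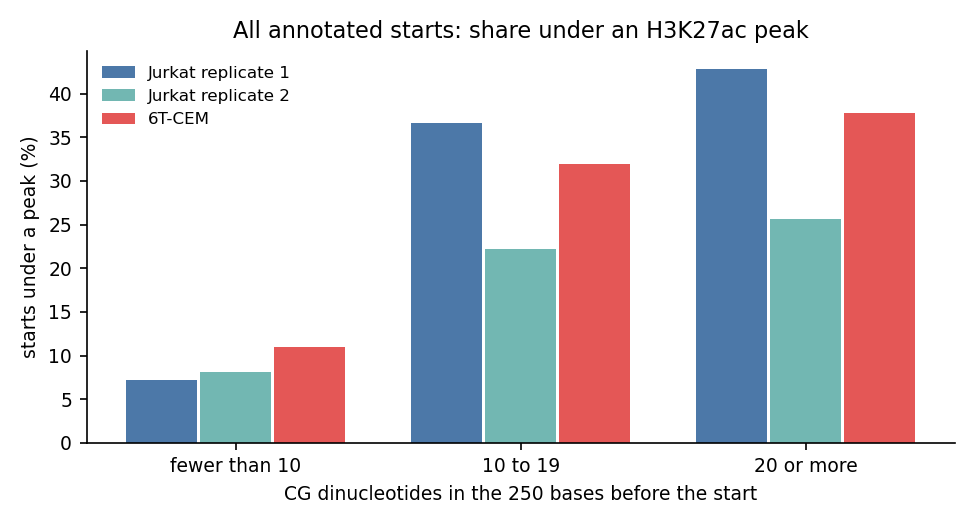
Share of all annotated starts that lie under an H3K27ac peak (vertical axis, percent) by the number of CG dinucleotides in the 250 bases before the start (horizontal axis), one bar for each library. Starts with fewer than 10 CG were covered in 7.19% to 11.0% of cases, and 6 IKZF starts belong to this class. Of these, the second IKZF1 start and both IKZF2 starts were under a peak in every library, and the third IKZF1 start in none. The IKZF4 starts at 56020905 and 56021043 were under a peak in Jurkat replicate 2 and 6T-CEM only.

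Motif searches on both strands of the 250 bases gave few matches. The letters TGGGAA, which hold the core that Ikaros proteins bind, occurred once at the first IKZF1 start and at no other IKZF start, and 20.1% of all starts held them. CCGGAA, the core of ETS factor sites, occurred once at the outermost IKZF4 start, against 17.9% of all starts. TGTGGT, the core of RUNX factor sites, occurred 2 times at the outermost IKZF2 start and 1 time each at the second IKZF1 start and the inner IKZF5 start, against 9.36% of all starts. TGGGAA and CCGGAA share the letters GGAA. No printed stretch held matches to more than 1 of these motifs. A match is only a run of letters and not evidence of binding.

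At the level of whole lists, the libraries differed in size, which bears on every value that follows. The peaks covered 16.2, 27.6 and 34.3 Mb, and the depth of sequencing is unknown because the lists give no read counts. The median gene with covered bases in any library had 1625, 1971.5 and 2582.5 covered bases. Fold enrichment and q are the authors' values per peak and are used to rank peaks within a list. A peak lay within 1 kb of a start (of either end where no start was given) for 6, 8 and 6 of 8 T-cell marker genes. It did so for 2, 3 and 3 of 6 B-cell, 0, 1 and 0 of 5 myeloid, 0 of 4 erythroid and 0 of 5 non-blood markers. EBF1 and MS4A1, which define B cells, had no covered bases in any library, and PAX5 had 1153, 692 and 0. Summed over the windows, the T-cell markers had 113315, 147263 and 113618 covered bases and the B-cell markers 22168, 45968 and 49770. A peak counts in these sums once for each gene whose window holds it, so peaks near adjacent marker genes count more than once. The lists also differ in size, with 8 and 6 genes, so the sums are not comparable between them. With 1 library of 6T-CEM there is no test of the lines, and the Jurkat libraries give the replicate difference.

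Over the family, a peak lay within 1 kb of a start for 3, 3 and 4 of 5 genes, against 38.4%, 33.3% and 40.9% of all genes. For IKZF3, which has no start in the table, either end was read. Some peak lay in the window of 5, 4 and 5 members (65.3%, 65.9% and 71.9% of all genes), and in the body of 3, 3 and 4 (41.3%, 41.7% and 47.9%). A region with overlapping peaks of all 3 libraries, sharing at least 1 base, lay in the window of 4 members, all but IKZF5, and of 52.0% of all genes. The call used for the lines was covered bases, with 500 added, at least 2 times or at most 0.5 times those of both Jurkat libraries. By it 2 of 5 members were higher in 6T-CEM, IKZF1 and IKZF4, against 14.9% of 15640 genes with covered bases, and 0 were lower, against 2.74%. The median log2 ratio of the 5 members was −0.22, that of all genes 0.35. IKZF1 and IKZF4 were also the members above both Jurkat libraries at any size (52.3% of genes), and IKZF3 was below both (15.3%). The Jurkat libraries themselves lay at least 2 times apart for the other 3 members, IKZF2, IKZF3 and IKZF5, and for 34.7% of genes.

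Both higher calls depended on the scale. When each library was divided by its median gene, IKZF1 was 1.67 times the higher Jurkat library and IKZF4 1.47 times, so neither reached 2 times, as 8.35% of genes still did. When the lists were cut to their 16159 peaks of highest −log10 q, IKZF1 kept its call and IKZF4 did not (11.9% of genes higher). IKZF4 also lost it among peaks of −log10 q of 5 or more. Leaving out either Jurkat library left both calls in place. IKZF3, with 0 bases in 6T-CEM at that list length, then fell below 0.5 times both Jurkat libraries (8.03% of genes lower).

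**Figure D2:**
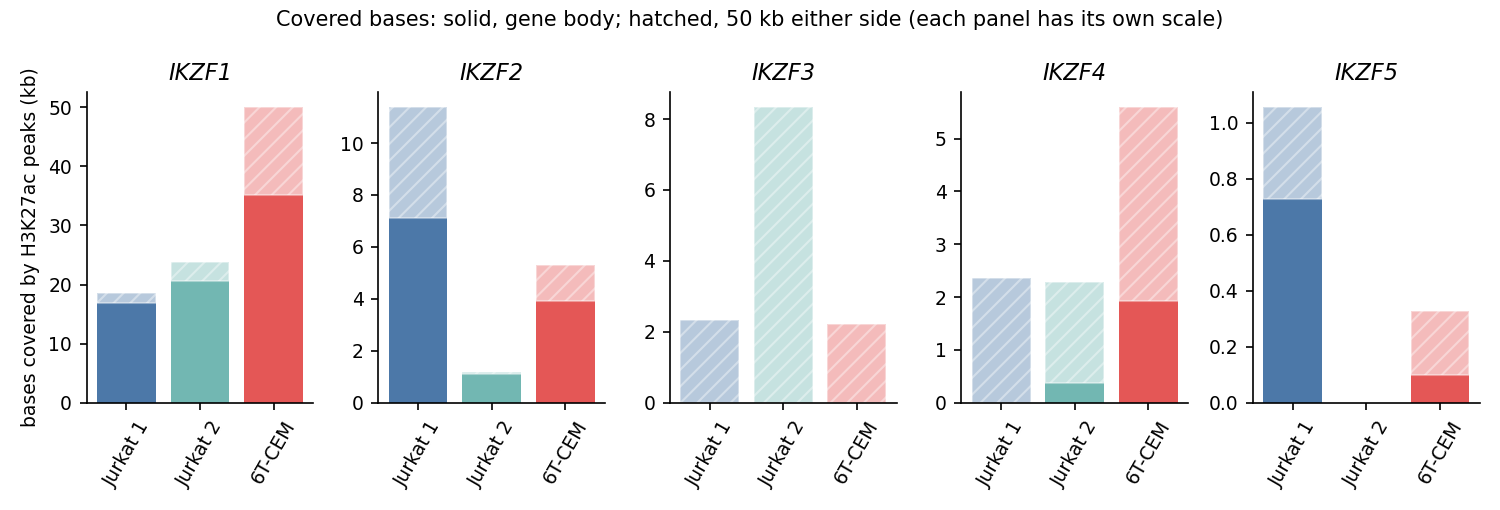
Bases covered by H3K27ac peaks (vertical axis, kb, from 0, its own scale in each panel) for each IKZF gene in the 3 libraries, split into gene body (solid) and the 50 kb on either side (hatched). IKZF1 reaches 50080 bases in 6T-CEM, and the IKZF3 bars have no solid part.

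IKZF1 lies on chromosome 7 from 50303455 to 50405101, plus strand. Its window held 20 peaks with 18523 bases and 31 peaks with 23749 bases in the Jurkat libraries, and 44 peaks with 50080 bases in 6T-CEM. The Jurkat libraries lay close together, and 6T-CEM was 2.09 times the higher and 2.66 times the lower of them with 500 bases added. On the log2 scale 6T-CEM exceeded the Jurkat mean by 1.23, compared with −0.35 for replicate 1 over replicate 2 and a median of 0.35 over all genes. In each library IKZF1 was near the top of all genes, at percentiles 99.4, 98.1 and 99.7 by covered bases, and at 97.5, 94.2 and 98.9 by the covered share of the window.

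**Figure D3:**
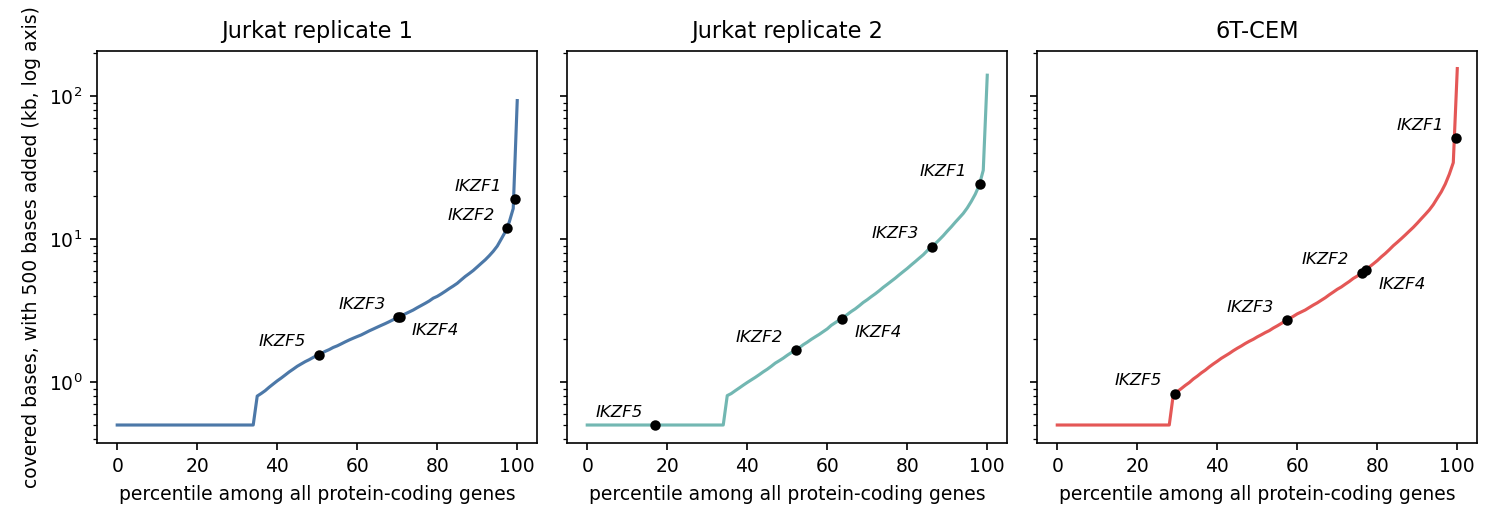
Covered bases with 500 added (vertical axis, kb, log axis) against the percentile among all protein-coding genes (horizontal axis) in each library, with the IKZF genes as black points. IKZF1 sits at percentiles 98.1 to 99.7 in all 3 libraries, whereas IKZF2 moves from 97.5 in Jurkat replicate 1 to 52.1 in replicate 2.

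The body of IKZF1 was covered over 16.6%, 20.2% and 34.6% of its length. Outside the body the gap was wider, with 1661 and 3216 bases in the Jurkat libraries and 14909 in 6T-CEM. Restricted to the body, 6T-CEM had 35171 bases against 16862 and 20533, and the call of 2 times over both was not reached, nor was it with 10 kb or 25 kb on either side.

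At the first IKZF1 start, position 50304716, whose sequence is the CG-rich one printed above, 6T-CEM had a single peak of 4259 bp from 50301653 to 50305911. Its fold was 13.3 and its −log10 q was the highest of the window. The Jurkat peaks there were shorter, with 1067 bp and a fold of 9.22 in replicate 1 and 1687 bp and a fold of 6.02 in replicate 2. The summits of the 3 peaks lay within 239 bp of each other. The CG-poor second start, position 50308700, lay under peaks of 2971, 1045 and 1303 bp with folds of 7.28, 10.3 and 4.25. In Jurkat replicate 2 this was the peak of highest fold in the window, above the first start. In replicate 1 and in 6T-CEM the first start had the higher fold of the pair, so the order of the starts differed between the Jurkat libraries. The third start, position 50319048, had no peak over it, the nearest being 2467, 479 and 385 bp away.

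Downstream of the starts, the peaks of the 3 libraries shared many positions inside IKZF1. The window held 45 regions of overlapping peaks, of which 14 had peaks of all libraries and 23 of 6T-CEM alone. Over all regions of the 3 lists, 17.4% had all libraries and 32.2% 6T-CEM alone. Single Jurkat libraries held 1 region each on their own, against 5.39% of all regions for replicate 1 and 23.9% for replicate 2. None was shared by the Jurkat libraries without 6T-CEM, for which the share over all regions was not counted. In 13 of the 14 common regions the 6T-CEM peaks covered more bases than those of either Jurkat library, as they did in 41.4% of all common regions. The common regions held 17306, 20413 and 33937 bases. The summits of their highest peaks spread over a median of 247.5 bp.

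The longest common region ran from 50356317 to 50361133, about 55.3 kb inside the gene at its centre, and was a single 4817 bp peak in 6T-CEM and 3 peaks in each Jurkat library. A region at 11.95 kb, from 50313972 to 50316839, had folds of 7.21, 8.26 and 11.1, and its summits lay within 75 bp. Of the 23 regions with 6T-CEM peaks only, 11 lay over the body and 12 outside it, each with 306 to 1053 bp and 11207 bases in all. They included the peak of highest fold in the 6T-CEM window, 755 bp from 50342451 to 50343205 with a fold of 15.8. That peak was at percentile 99.3 of all 6T-CEM peaks by fold, and neither Jurkat list had a peak there.

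Upstream of IKZF1, a 4419 bp peak of 6T-CEM from 50265580 to 50269998, centred at −35.7 kb from the low-coordinate end, had a fold of 10.2. In the same place Jurkat replicate 1 had 1 peak of 703 bp with a fold of 4.38. Replicate 2 had 3 peaks with 1364 bp in all and a highest fold of 6.07. By fold these stood at percentiles 28.2 and 81.8 of their lists, and the 6T-CEM peak at 95.5. The region was marked in every library but differed in width and in rank by fold. Downstream, the peaks of 1454 bp in 6T-CEM and of 958 bp and 612 bp in the Jurkat libraries lay at FIGNL1, a neighbouring gene whose product acts in DNA repair.

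Stitched regions, made by joining neighbouring peaks over the gap customary for super-enhancers and ranked on width multiplied by fold, added over the peaks, are an approximation to super-enhancers without read signal. IKZF1 was the member in a large stitched region in each list. Its best region ranked 287 of 8853 in replicate 1, with 6 peaks over 12.3 kb. It ranked 202 of 11190 in replicate 2, with 23 peaks over 67.9 kb, and 63 of 13075 in 6T-CEM, with 30 peaks over 83.8 kb. The large regions, those past the point where the ranked scores turn steeply upward, numbered 424, 584 and 585, and windows of 6.00%, 10.3% and 9.59% of genes touched one. No other member did so, the best being IKZF2 at rank 664 in Jurkat replicate 1 and the IKZF3 window at 671 in replicate 2. The latter region, from 39904926 to 39927004, lay wholly outside IKZF3, and its peaks within the window lay in GSDMB. With scores of width alone a second member counted as large in replicate 2.

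**Figure D4:**
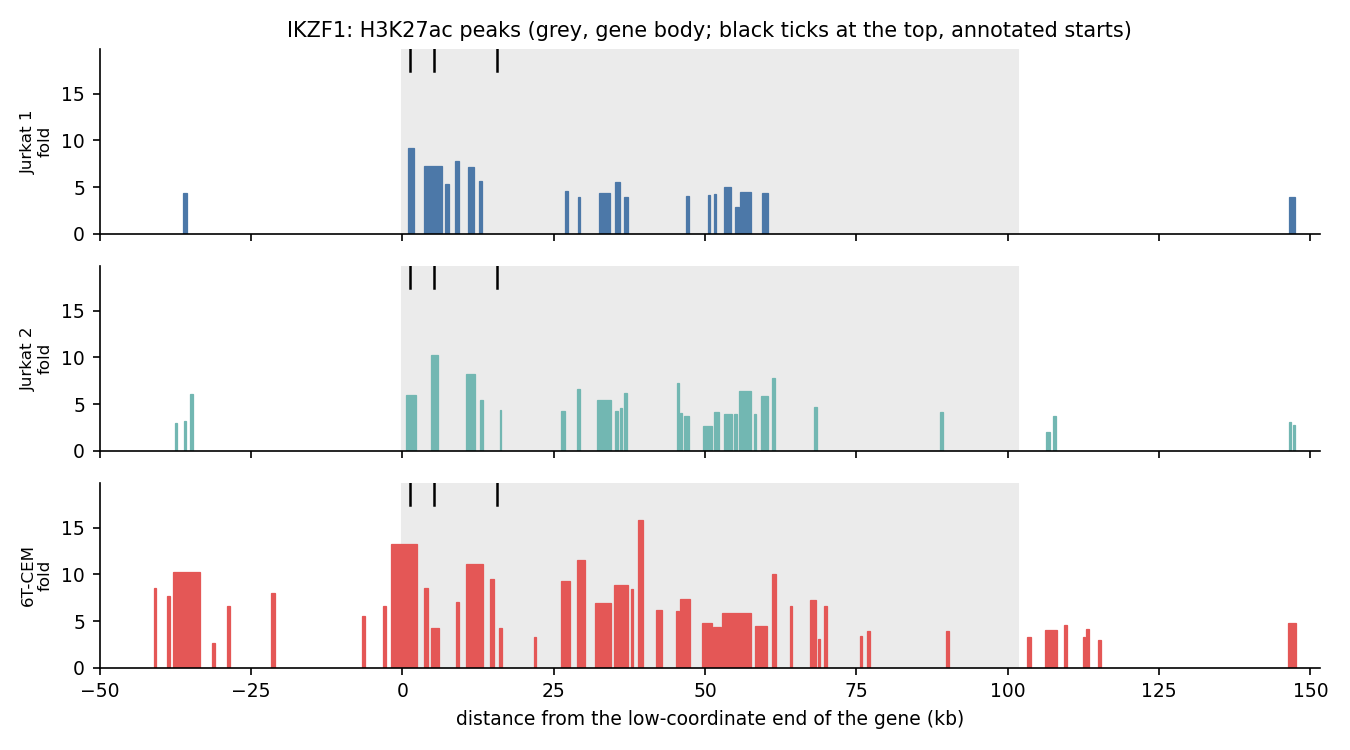
H3K27ac peaks around IKZF1 in each library: distance from the low-coordinate end of the gene (horizontal axis, kb), fold enrichment by the authors (vertical axis, bar height), peak width (bar width), gene body (grey) and annotated starts (black ticks). Of the 14 regions common to all libraries 12 lie over the body, and the wide upstream peak at −35.7 kb and the peak of fold 15.8 stand out in 6T-CEM.

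IKZF2, on chromosome 2 from 212999698 to 213152456 and on the minus strand, separated the Jurkat libraries rather than the lines. Its window held 14 peaks with 11394 bases in replicate 1 but 3 peaks with 1173 bases in replicate 2, and 6T-CEM had 11 peaks with 5317 bases. The 6T-CEM value lay between the Jurkat values, whose log2 ratio was 2.83. Without replicate 1 the gene would be called higher in 6T-CEM, and without replicate 2 lower. At equal list length the bases were 11394, 1173 and 2605, so the shortest list still held most.

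The 3 peaks of Jurkat replicate 2 were those common to all libraries. One lay over each of the printed starts and the last inside the gene. At the outermost start, position 213152456, the peaks were 1577, 523 and 1186 bp wide with folds of 5.69, 3.67 and 9.48. At the inner start, position 213150437, they were 801, 329 and 681 bp wide with folds of 7.33, 5.83 and 13.2. The inner start had the higher fold in every library, and in 6T-CEM its peak was at percentile 98.4 of the list by fold. The third common region, from 213124088 to 213124710, had folds of 6.32, 6.16 and 5.37 and summits within 7 bp.

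Of the 20 regions in the IKZF2 window, 9 were found in Jurkat replicate 1 alone, as were 5.39% of all regions, and 6 in 6T-CEM alone, a share near the 32.2% of all regions. The replicate 1 regions included a group of 3 peaks beyond the low-coordinate end, the widest of 1674 bp from 212958359 to 212960032 with a fold of 7.65. The 6T-CEM list had none of these. Its own peak of highest fold away from the starts, 419 bp from 212953523 to 212953941 with a fold of 9.41, lay nearby and overlapped no Jurkat peak.

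IKZF3, on chromosome 17 from 39757715 to 39864312, had 0 peaks in its body of 106598 bp in each of the 3 lists. All covered bases of its window, 2339 and 8346 in the Jurkat libraries and 2211 in 6T-CEM, lay in the flanks. Against the Jurkat mean the log2 ratio was −1.11, while the Jurkat libraries differed by −1.64, so the lines did not differ beyond the replicates. Part of the flank belongs to other genes. A region common to all libraries, from 39729748 to 39730553, lay at MIEN1, and in Jurkat replicate 2 3 peaks lay in GSDMB, which encodes a pore-forming gasdermin, 2 in ERBB2, a growth factor receptor gene, and 1 in GRB7, which encodes an adaptor protein. In 6T-CEM ERBB2 held 1 peak.

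The region common to all libraries that lay closest to IKZF3 ran from 39753157 to 39755923, beyond its low-coordinate end and between GRB7 and IKZF3. It had 1336 bases in replicate 1, 2609 in replicate 2 and 1363 in 6T-CEM. In replicate 2 its main peak of 1718 bp had a fold of 10.6, at percentile 98.3 of that list. In replicate 1 the fold was 3.26, and in 6T-CEM the highest fold was 4.39, at percentile 43.7 of its list. The region was therefore present in every list but prominent in 1 Jurkat library. Replicate 1 alone had a peak closer to the gene, of 455 bp from 39756030 to 39756484, centred at −1.46 kb.

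IKZF4, on chromosome 12 from 56007504 to 56038435 and on the plus strand, had 3 peaks with 2367 bases, 4 peaks with 2276 bases and 6 peaks with 5600 bases. The Jurkat libraries were nearly equal, and 6T-CEM was 2.13 times the higher of them, a log2 ratio of 1.11 to their mean. Much of this lay at neighbours. All 3 peaks of replicate 1, 2 of 4 in replicate 2 and 3 of 6 in 6T-CEM lay within 1 kb of an end of another gene: RPS26, a ribosomal protein gene, RAB5B, a gene of endosome traffic, or CDK2 and PMEL, a cell-cycle kinase gene and a pigment cell gene that share a region. Without those peaks the window held 0, 751 and 2684 bases. Part of this remainder still lay inside other genes, with 385 bases in RAB5B in Jurkat replicate 2 and 762 bases in the neighbouring gene SUOX in 6T-CEM.

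Inside IKZF4 the covered bases were 0, 366 and 1922. The inner start at position 56020905, and a further start at 56021043, lay under a 366 bp peak with a fold of 5.93 in Jurkat replicate 2 and under a 1601 bp peak with a fold of 5.96 in 6T-CEM. These peaks stood at percentiles 80.3 and 72.3 of their lists by fold. Replicate 1 had no peak within 20616 bp of these starts. 6T-CEM had a further peak of 321 bp inside the gene, from 56036395 to 56036715. The signal at the inner start thus did not separate the lines, since the Jurkat libraries differed in having it.

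IKZF5, on chromosome 10 from 122990806 to 123008795 and on the minus strand, was the least covered member, with 1057, 0 and 327 bases. In Jurkat replicate 1 a 731 bp peak with a fold of 3.89 covered its starts, while in 6T-CEM a 327 bp peak with a fold of 2.15 covered the outermost start and lay 11 bp from the inner one. The 6T-CEM peak had a −log10 q of 2.58 and was at percentile 0.329 of its list by fold. Both peaks lay within 1 kb of ACADSB, a fatty acid and amino acid metabolism gene whose end is 0.21 kb from IKZF5, so they cannot be assigned to either gene. The second peak of replicate 1 lay at PSTK. In Jurkat replicate 2 the nearest peak to the outermost start was 126868 bp away.

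**Figure D5:**
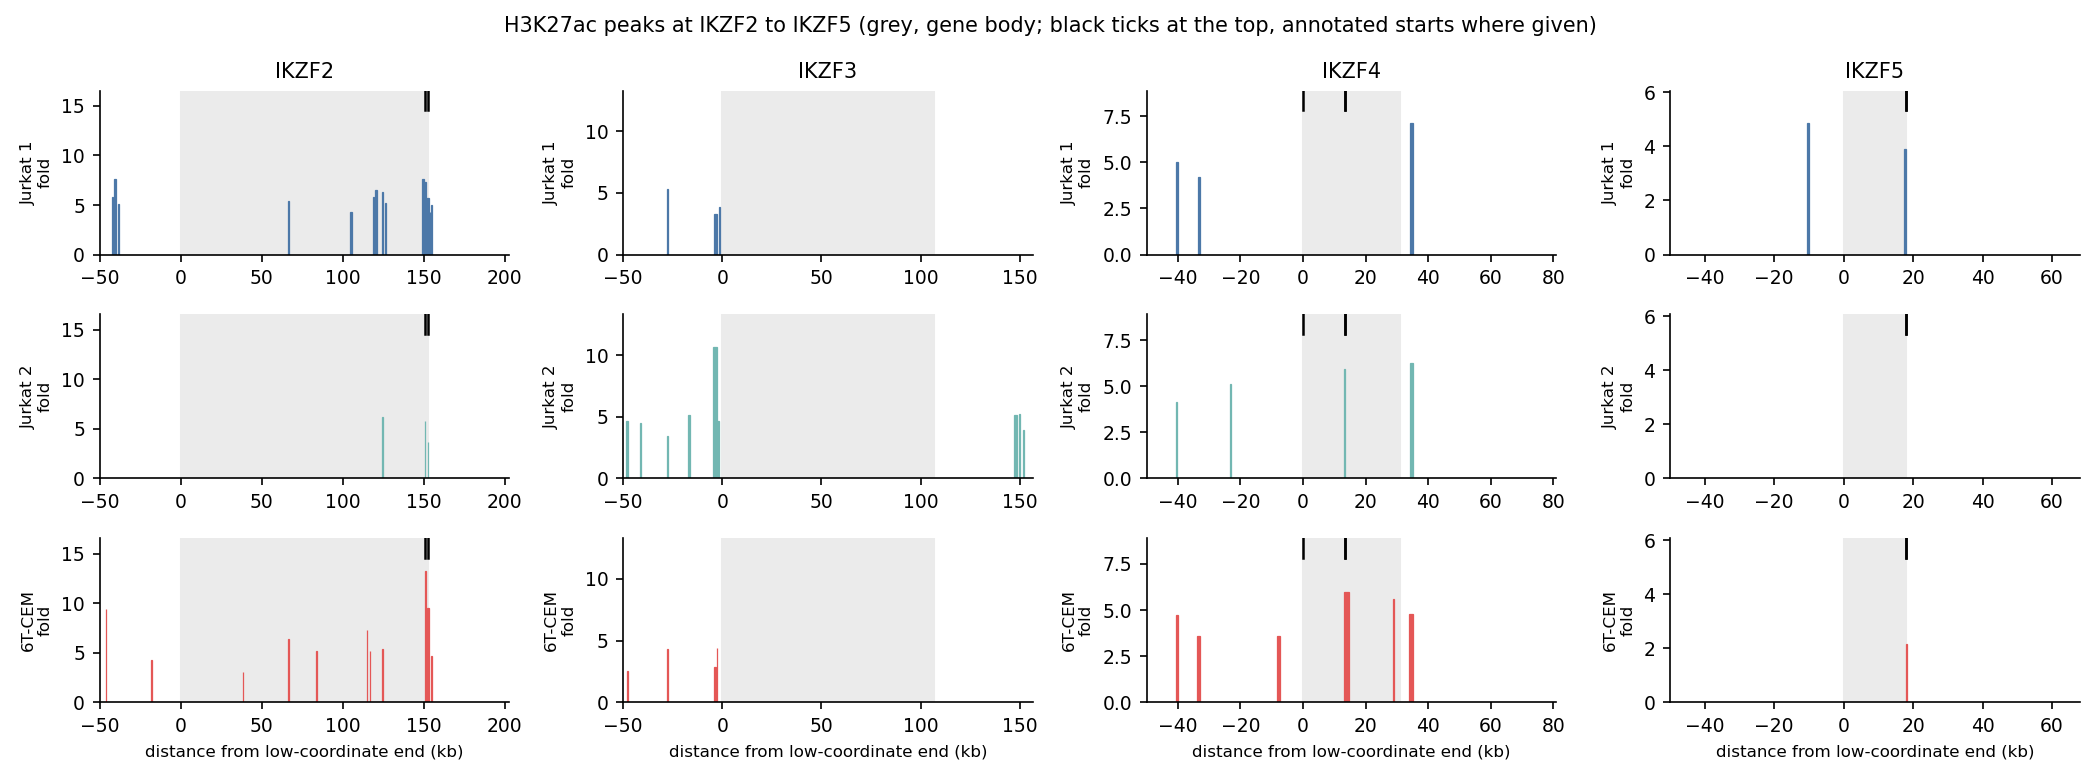
H3K27ac peaks around IKZF2, IKZF3, IKZF4 and IKZF5 (columns) in each library (rows), as distance from the low-coordinate end (horizontal axis, kb) and fold by the authors (vertical axis), with gene bodies in grey and annotated starts as black ticks. IKZF3 shows no peak over its body in any library, and IKZF2 has 14 peaks in Jurkat replicate 1 but 3 in replicate 2.

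Genes whose covered bases were most alike over the 3 libraries were found by the distance in log2 of covered bases with 500 added, among genes on other chromosomes. Closest to IKZF1 were CCND3, the cyclin D3 gene, with 18371, 24325 and 41533 bases (distance 0.27), MIDEAS (0.44) and P2RX5 (0.46). HACD1 (0.62), ARPP21 (0.72) and RPL34 (0.82) came nearest to IKZF2. IQCF1, SYMPK and FOXA3 followed IKZF3 at 0.20 to 0.21, AHCYL1, GLMN and RPAP2 IKZF4 at 0.10 to 0.14, and ASB7, ELP2 and DIMT1 IKZF5 at 0.05 to 0.08. GLMN and RPAP2 had the same covered bases in each library, as did SYMPK and FOXA3 in Jurkat replicate 1 and 6T-CEM. The genes of such a pair may hold the same peaks and not be separate likenesses. With 3 libraries such likeness is a description only.

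The partners of the family were read in the same way. Among 17 genes of the NuRD complex and related corepressors, 1 was higher in 6T-CEM and 0 lower, against 14.9% and 2.74% of all genes. The higher one was MTA3, a NuRD subunit gene, with 4258 and 4241 bases in Jurkat and 9779 in 6T-CEM. A peak lay at a start of 14, 13 and 14 of the 17, against 38.4%, 33.3% and 40.9% of all genes. CHD4, which encodes the NuRD remodelling ATPase, had 12361, 26103 and 28530 bases. The median log2 ratio of the list was 0.40, near the 0.35 of all genes.

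The cereblon ligase, through which lenalidomide-type drugs degrade Ikaros and Aiolos, had 0 of 5 genes called in either direction and a median of −0.38. CRBN, which encodes cereblon itself, had 1632, 1446 and 1070 bases. Of 15 genes linked to Ikaros in lymphoid cells, 14 had covered bases, with 3 higher in 6T-CEM, 1 lower and a median of 0.26. These counts are near the background of 14.9% and 2.74% of all genes. Higher were CD8A, the co-receptor gene, with 0, 4858 and 11289 bases, HES1, a NOTCH target, with 0, 0 and 7375, and MYC, the growth-driving transcription factor gene, with 472, 1487 and 4919. DNTT, which encodes the terminal transferase of antigen receptor joining, was lower with 18098, 8727 and 0. With 500 bases added, the Jurkat libraries themselves lay at least 2 times apart in CD8A, MYC and DNTT. The calls in these lists were made without division by the median gene.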

How the data were processed

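The deposited H3K27ac peak lists, 1 per library, cover 2 samples of Jurkat and 1 of 6T-CEM. Bowtie2 2.2.5, MACS2 2.2.7 and hg38 are named in the submitters' processing notes, while caller options and control use are not given in the sources used here. Each line of the authors' lists gives a fold ratio over background, a −log10 p-value, a −log10 q-value and a score per peak, and no read counts. The score was the whole part of 10 times −log10 q except in 2 lines of Jurkat replicate 2, and it was not used.

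Bases covered by peaks over each gene body and 50 kb either side were summed for 19974 RefSeq protein-coding genes (GRCh38.p14). Starts came from the RefSeq promoter table (15812 genes), and for the other 4162 both ends were used. No test was run, since 6T-CEM has 1 library. Named genes were the members, neighbours with a peak near an end, listed genes called in either direction, and the 3 most alike genes per member. CHD4, CRBN, EBF1, MS4A1, PAX5, GRB7 and SUOX were named outside this rule, after their values were seen. The members and lists were chosen with earlier results of these data known. Alternatives covered the q threshold, list length, window, peaks at other genes, added bases, each Jurkat library, overlap and stitching, and centring was added after seeing the data. Simulated regions were classed correctly in 5000 of 5000 cases, and covered bases of 239 chromosome 21 genes were recounted without a difference. Chromosome Y and other contigs were left out. Python 3.11.15, NumPy 2.4.6, pandas 2.3.3 and matplotlib 3.10.9 were used.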

Additional observations from a re-analysis of the deposited data

How the results depend on the processing

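The number of IKZF genes higher in 6T-CEM, 2 as reported, was 1 with peaks of −log10 q of 5 or more, at equal list length, with 2000 bases added, and in windows of the gene body, 10 kb and 25 kb. It was 0 after centring. IKZF1 was the gene that kept the call with the stricter q, at equal list length and with 2000 bases, and IKZF4 the one that kept it in the smaller windows. The number lower, 0 as reported, was 1 at equal list length (IKZF3). It was also 1 (range 1 to 1) when either Jurkat library was left out, IKZF3 without replicate 1 and IKZF2 without replicate 2, while the number higher then ranged from 2 to 3. Genes with a region common to all libraries were 2 in the gene body alone instead of 4. Genes in a large stitched region were 2 in Jurkat replicate 2 with scores of width alone instead of 1. The other 55 of 67 alternative counts stayed within 1.5 times the reported count. Of 48 alternative log2 ratios of single genes 12 moved. A ratio moved if it shifted by at least the standard deviation between that gene's reported log2 ratios to each Jurkat library. That value was 0.033 for IKZF4 and 2.00 for IKZF2, so a small shift counted for IKZF4 and a far larger one did not for IKZF2. IKZF1 and IKZF4 stayed above 0 in each setting run, whereas IKZF2 turned from −0.22 to 1.80, and IKZF5 from −0.31 to 0.73, without Jurkat replicate 1, and IKZF2 was 0.02 with 25 kb. No paired analysis was possible because 6T-CEM has 1 library without a replicate number, and no test was run. Peak lists without read counts limit the precision to an unknown degree, and a peak absent from a list may lie below the caller's threshold.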
